A study of Schizosaccharomyces pombe with 12 samples.

Results

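The cell polarity regulators of fission yeast described here are 10 genes that decide where a rod-shaped cell grows and where it divides: *tea1*, *tea4*, *pom1*, *cdc42*, *gef1*, *scd1*, *scd2*, *rga4*, *orb6* and *mor2*. Members were taken as the probe sets whose gene symbol in the annotation of the array equalled 1 of these names, and each name matched exactly 1 probe set, giving 10 of the 4880 *S. pombe* probe sets measured. RNA was measured on 12 Affymetrix Yeast Genome 2.0 arrays, 3 biological replicates for each of 4 groups of *Schizosaccharomyces pombe* cultures. Wild-type and *set3Δ* cultures were each given DMSO or Latrunculin A (LatA) for 3 hours at 30°C in YES medium. All 12 cultures carried the auxotrophic alleles ura4-D18 leu1-32 ade6-216, and the *set3Δ* cultures (set3D in the labels) also carried set3::KanMX. The labels give 1 genotype string for each strain, so the strain comparison rests on 1 deletion allele. LatA binds actin monomers and blocks filament assembly, and DMSO is its solvent. The sample labels give the LatA dose as 0.5 mM, whereas the article writes the same figure in µM.

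Growth in *S. pombe* is confined to the cell ends, and division to the cell middle. Microtubules carry Tea1p, a Kelch-repeat protein, and Tea4p, an SH3-domain protein, to the ends, where Tea4p connects Tea1p to the formin For3p and helps to place the protein kinase Pom1p. From the ends Pom1p restrains the node kinase Cdr2p in the cell middle. The GTPase Cdc42p directs actin cables and secretion to the growing end. It is switched on by the exchange factors Gef1p and Scd1p, the latter on the scaffold Scd2p, and switched off along the cell sides by the GTPase-activating protein Rga4p. Orb6p, an NDR-family kinase that depends on the Furry-like protein Mor2p, keeps Gef1p away from the cell sides. Gef1p also acts at the division site.

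The deposited values are log2 intensities centred on the median of each probe set over the 12 arrays. A value is therefore a distance from the gene's own median, and the 10 transcripts cannot be ranked against each other by level. Signal over background is not known from such values, so the number of arrays and the spread between them set the precision. Replicate arrays of the members had a median SD of 0.073 (DMSO) and 0.053 (LatA) in wild type, and of 0.044 (DMSO) and 0.067 (LatA) in *set3Δ*. The *set3* probe set checked the strain labels, at 1.97 to 2.31 in the 6 wild-type arrays and at -2.59 to -1.97 in the 6 *set3Δ* arrays. The strains also differed in genes of the M mating type. With DMSO *mfm2*, a precursor gene of the M-factor pheromone, differed by -4.62 log2 in *set3Δ* against wild type (limma, adjusted p = 0.00131). The difference of *mat3-Mc* was -5.55 (limma, adjusted p = 0.00376). The M-cell genes *mam1* (-0.78) and *mam2* (-0.44) did not pass with DMSO, and passed as lower with LatA (-0.76 and -1.16). The P-cell genes *map2* and *map3* passed with neither (-0.15 and 0.084 with DMSO). The article's strain list holds a wild type with such auxotrophic alleles as h- and a set3::KanMX strain with them as h+. It does not say which were hybridized, and effects of *set3* and of mating type or its expression cannot be told apart. Replicate 3 of wild type with DMSO was the lowest of its 3 arrays for 8 of the 10 members. Differences of over 0.1 between groups or responses that moved by over 1.5 times without replicate 3 are also given without it. Replicate 1 of this group was the highest for 8 of 10. Over all probe sets its median absolute distance from the rest of the group was 0.14, against 0.11 for replicate 3. Values without replicate 1 are not given throughout.

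The first question was which of the 10 transcripts changed when actin assembly was perturbed. In wild-type cells 3 of 10 rose with LatA and none fell: *gef1*, *orb6* and *scd1*. Calls were made with limma on 3 arrays per group, at a Benjamini-Hochberg adjusted p below 0.05 across the 4880 probe sets. The same test called 43.0% of all probe sets in this comparison, 17.5% as higher and 25.5% as lower, so the count among the members was not above that of the array as a whole. The arrays with and without LatA did not overlap for 6 of 10 members, 5 higher and 1 lower, against 60.2% of all probe sets. Each array holds the RNA of a whole culture, so that a change in the share of cells with a transcript and a change in its amount per cell cannot be told apart. The median log2 difference of the members was 0.11, against -0.034 over all probe sets. None of the 10 reached a fold change of 1.5, the limit that the study set beside its p-value and that 14.5% of all probe sets passed together with the test.

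In *set3Δ* cells 2 of 10 transcripts rose with LatA, *orb6* and *gef1*, and 1 fell, *pom1*. Over all probe sets 12.4% were called, 6.43% as higher and 6.0% as lower. The median log2 difference of the members was 0.035, against -0.02 over all probe sets, and the members' median absolute difference was 0.24 against 0.15. Again no member reached a fold change of 1.5, which 3.61% of all probe sets did together with the test. With each gene's own variance none of the 3 calls was made, and 0.389% of all probe sets were called. The arrays with and without LatA did not overlap for 7 of 10 members, 3 higher and 4 lower, against 46.7% of all probe sets.

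Between the strains, no member passed with DMSO in limma (5 at an unadjusted p below 0.05, beside 22.8% of all probe sets; 0 with each gene's own variance), in a comparison that called 0.164% of all probe sets. Of the 10 members 9 lay higher in *set3Δ*, whereas 2307 of 4880 probe sets did. The members were chosen with earlier results of these data known, so such counts are description only. For 5 members, *pom1*, *rga4*, *scd2*, *gef1* and *orb6*, the *set3Δ* arrays lay wholly above the wild-type arrays, against 11.2% of all probe sets. When all 12 arrays shared 1 estimate of the spread, 4 of these 5 passed (*gef1*, *pom1*, *orb6* and *rga4*, adjusted p from 0.0125 to 0.0366), and *scd2* did not (adjusted p = 0.0514). That fit called 11.0% of all probe sets. With LatA, *orb6* and *gef1* were higher in *set3Δ*, 2 of 10 against 18.2% of all probe sets (9.8% as higher), and 7 of 10 members had a positive difference. Neither passed with each gene's own variance, which called 5.78% of all probe sets. The LatA response itself was not shown to differ between the strains for any member: the difference of the responses, fitted on all 12 arrays, passed for 0 of 10 in limma (1 at an unadjusted p below 0.05, *scd2*, beside 20.2% of all probe sets; 0 with each gene's own variance), and for 0.0615% of all probe sets.

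**Figure D1:**
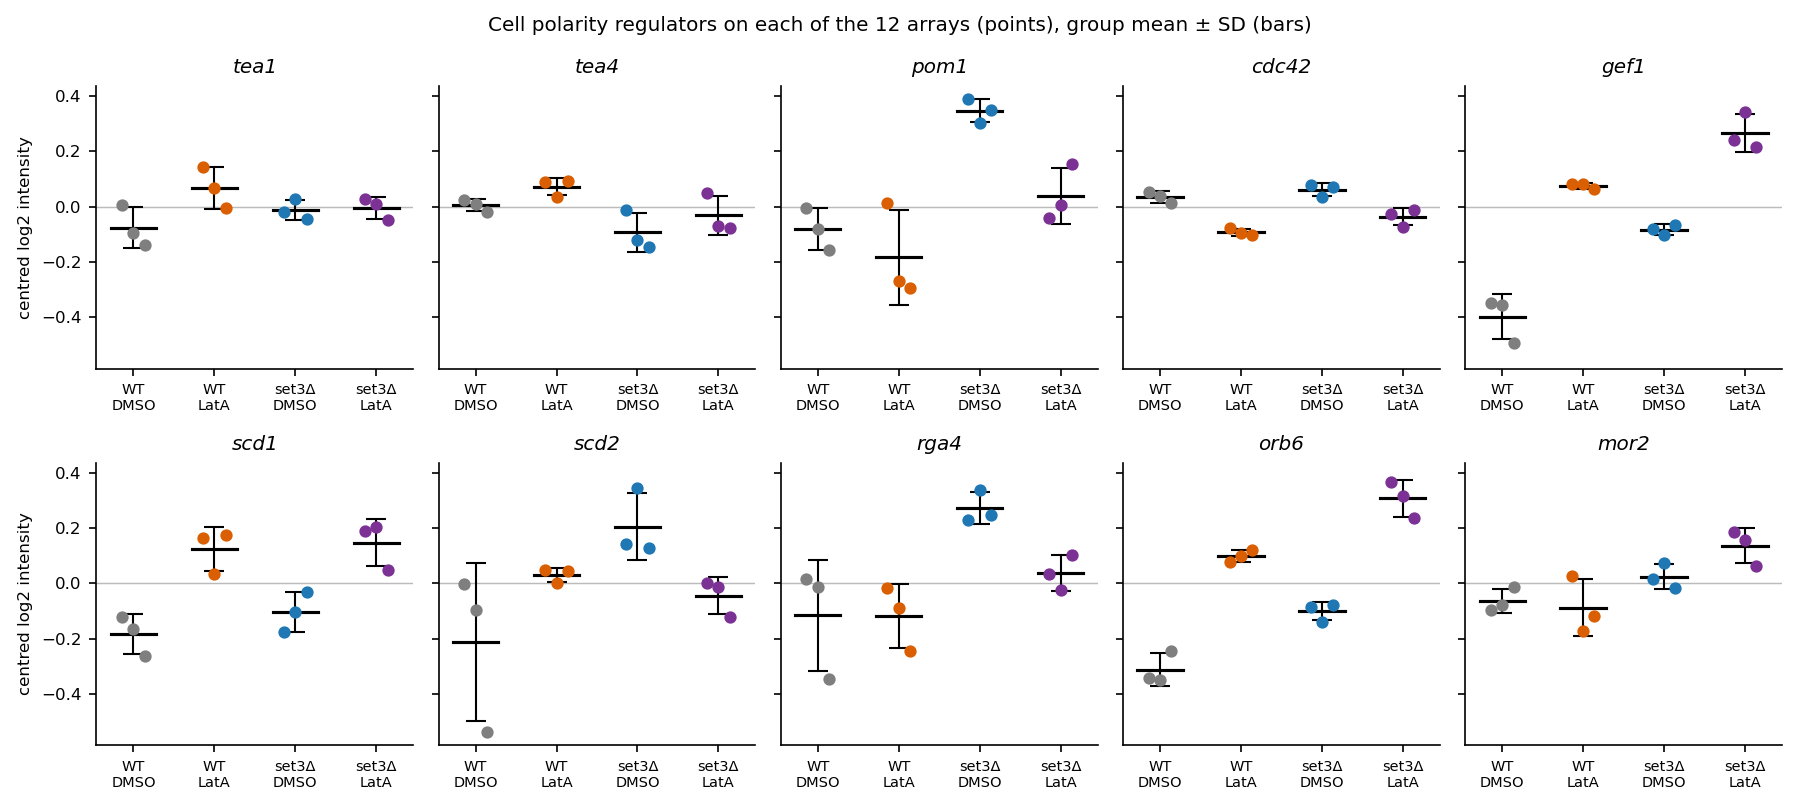
Centred log2 intensity of each of the 10 cell polarity regulators (vertical axis, shared) on the 12 arrays, in 4 groups of 3 arrays; points are arrays, thick bars group means and thin bars the SD. *gef1* and *orb6* form 4 separate steps, from wild type with DMSO at the bottom to *set3Δ* with LatA at the top, while *pom1*, *rga4* and *scd2* are highest in *set3Δ* with DMSO.

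Among the regulators of Cdc42p, *gef1*, which encodes an exchange factor, showed the widest range, 0.66 between its lowest and its highest group mean. In wild type with DMSO its 3 arrays lay at -0.35, -0.36 and -0.49, and with LatA at 0.081, 0.083 and 0.064. In *set3Δ* they lay at -0.081, -0.10 and -0.064 with DMSO and at 0.24, 0.34 and 0.22 with LatA. The 4 groups did not overlap, and their order was *set3Δ* with LatA, wild type with LatA, *set3Δ* with DMSO, wild type with DMSO. With LatA *gef1* rose by 0.47 in wild type (a fold change of 1.39; standard error 0.059, limma adjusted p = 0.00486). In *set3Δ* it rose by 0.35 (standard error 0.052, adjusted p = 0.0233). These responses differed by -0.12 (95% confidence interval -0.29 to 0.037, adjusted p = 0.344), and by -0.077 without wild-type DMSO replicate 3. The transcript was higher in *set3Δ* by 0.31 with DMSO (standard error 0.059), which did not pass (adjusted p = 0.136 from limma), and by 0.19 with LatA (standard error 0.048, adjusted p = 0.0426).

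The call of *gef1* in wild type held without each of the 6 arrays. In *set3Δ* it was lost without DMSO replicate 1 (adjusted p = 0.0562) and without LatA replicate 1, 2 or 3 (0.0907, 0.114 and 0.0509), and between the strains with LatA it was lost without any 1 of the 6 arrays (0.0597 to 0.125). The *gef1* differences themselves moved little, staying between 0.31 and 0.37 in *set3Δ* and between 0.15 and 0.22 between the strains.

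The kinase gene *orb6* had nearly the same profile as *gef1*. Its wild-type arrays lay at -0.34, -0.35 and -0.25 with DMSO and at 0.078, 0.098 and 0.12 with LatA. Its *set3Δ* arrays lay at -0.085, -0.14 and -0.078 with DMSO and at 0.37, 0.32 and 0.24 with LatA. All 4 groups were separate, in the order found for *gef1*. The LatA response was 0.41 in wild type (standard error 0.054, adjusted p = 0.00486 from limma) and 0.41 in *set3Δ* (standard error 0.053, adjusted p = 0.0199), both a fold change of 1.33. The difference between these responses was -0.0033, with a 95% confidence interval from -0.16 to 0.15. Between the strains *orb6* was higher in *set3Δ* by 0.21 with LatA (standard error 0.049, adjusted p = 0.035 from limma), and the estimate with DMSO was of the same size, 0.21, without passing (standard error 0.054, adjusted p = 0.157).

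The wild-type call of *orb6* also held without each array. In *set3Δ* it was lost when DMSO replicate 1 (adjusted p = 0.053) or LatA replicate 1 or 2 (0.0882 and 0.114) was left out. Between the strains with LatA the *orb6* call held only without *set3Δ* replicate 3, and the adjusted p was 0.0672 to 0.111 without any other array. The partner gene of the kinase, *mor2*, did not follow it with LatA in wild type: its difference was -0.025 (95% confidence interval -0.19 to 0.14), with arrays at -0.097, -0.079 and -0.014 with DMSO and at 0.025, -0.17 and -0.12 with LatA. In *set3Δ* the *mor2* arrays lay at 0.014, 0.074 and -0.016 with DMSO and at 0.18, 0.16 and 0.064 with LatA, a difference of 0.11 that did not pass (adjusted p = 0.192 from limma). With LatA all 3 *set3Δ* arrays of *mor2* lay above the 3 wild-type arrays. That difference, 0.22, missed the threshold (limma, adjusted p = 0.0615). It passed in 4 of 13 alternative fits, among them without wild-type LatA replicate 1 (0.28, adjusted p = 0.0363).

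The second exchange factor gene, *scd1*, moved with LatA in the same direction as *gef1*. Its wild-type arrays lay at -0.12, -0.17 and -0.26 with DMSO and at 0.16, 0.032 and 0.17 with LatA. Its *set3Δ* arrays lay at -0.18, -0.10 and -0.032 with DMSO and at 0.19, 0.20 and 0.048 with LatA. In both strains the LatA arrays lay above the DMSO arrays, and within a treatment the strains overlapped. The transcript rose by 0.31 in wild type (standard error 0.067, adjusted p = 0.0143 from limma), a call lost without LatA replicate 3 (0.28, adjusted p = 0.0507). In *set3Δ* LatA minus DMSO was 0.25 and did not pass (standard error 0.066, adjusted p = 0.0591). It passed in 1 of 13 alternative fits (limma, adjusted p = 0.0251). Between the strains *scd1* differed by 0.079 with DMSO and by 0.023 with LatA (95% confidence intervals -0.083 to 0.24 and -0.13 to 0.18).

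The scaffold gene *scd2* had the largest difference between the LatA responses among the members, and 1 array weighed on it. Its wild-type arrays with DMSO lay at -0.0025, -0.097 and -0.54, and those with LatA at 0.048, -0.00068 and 0.043. In *set3Δ* the *scd2* arrays lay at 0.14, 0.34 and 0.13 with DMSO and at 0.00068, -0.013 and -0.12 with LatA. The transcript thus lay lower with LatA than with DMSO in every *set3Δ* array and higher in every wild-type array, although the nearest wild-type arrays were almost equal. Neither response passed: 0.24 in wild type (standard error 0.14, adjusted p = 0.20 from limma; 0.080 without DMSO replicate 3) and -0.25 in *set3Δ* (standard error 0.077, adjusted p = 0.0793). The difference between them was -0.49 (95% confidence interval -0.87 to -0.11, adjusted p = 0.171). It was -0.33 without wild-type DMSO replicate 3 (adjusted p = 0.236) and -0.60 without wild-type DMSO replicate 1, where it passed (adjusted p = 0.0463).

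With DMSO, *scd2* was higher in *set3Δ* than in wild type by 0.42 (standard error 0.15, adjusted p = 0.203), and by 0.25 without wild-type replicate 3. The gene of the GTPase-activating protein, *rga4*, had a similar pattern. Its arrays lay at 0.015, -0.015 and -0.35 in wild type with DMSO and at -0.018, -0.090 and -0.25 with LatA. In *set3Δ* those of *rga4* lay at 0.23, 0.34 and 0.25 with DMSO and at 0.033, -0.025 and 0.10 with LatA. All 3 *set3Δ* DMSO arrays lay above every other array. The *rga4* difference between the strains was 0.39 with DMSO (standard error 0.11, adjusted p = 0.166 from limma), 0.27 without wild-type replicate 3, and 0.16 with LatA (standard error 0.071, adjusted p = 0.172). Its LatA response was -0.0022 in wild type (95% confidence interval -0.29 to 0.28) and -0.23 in *set3Δ* (standard error 0.057, adjusted p = 0.0504), and the difference between these responses did not pass (-0.23, adjusted p = 0.345). Without wild-type DMSO replicate 3 that *rga4* difference was -0.12 and the wild-type response -0.12.

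The transcript of the GTPase itself, *cdc42*, lay within a narrow band. Its 12 arrays covered a range of 0.18, and its SD within a group, 0.022 on average, was the smallest of the 10. The wild-type arrays of *cdc42* lay at 0.054, 0.039 and 0.013 with DMSO and at -0.078, -0.096 and -0.10 with LatA. The *set3Δ* arrays lay at 0.079, 0.037 and 0.071 with DMSO and at -0.025, -0.071 and -0.013 with LatA. In both strains every LatA array lay below every DMSO array. The differences were -0.13 in wild type (standard error 0.047, adjusted p = 0.0675 from limma) and -0.099 in *set3Δ* (standard error 0.044, adjusted p = 0.16), a fold change of at most 1.09. The wild-type difference passed when all 12 arrays shared 1 estimate of the spread (adjusted p = 0.0161). The sign of *cdc42* was thus opposite to that of *gef1* and *scd1*, whose products activate it.

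**Figure D2:**
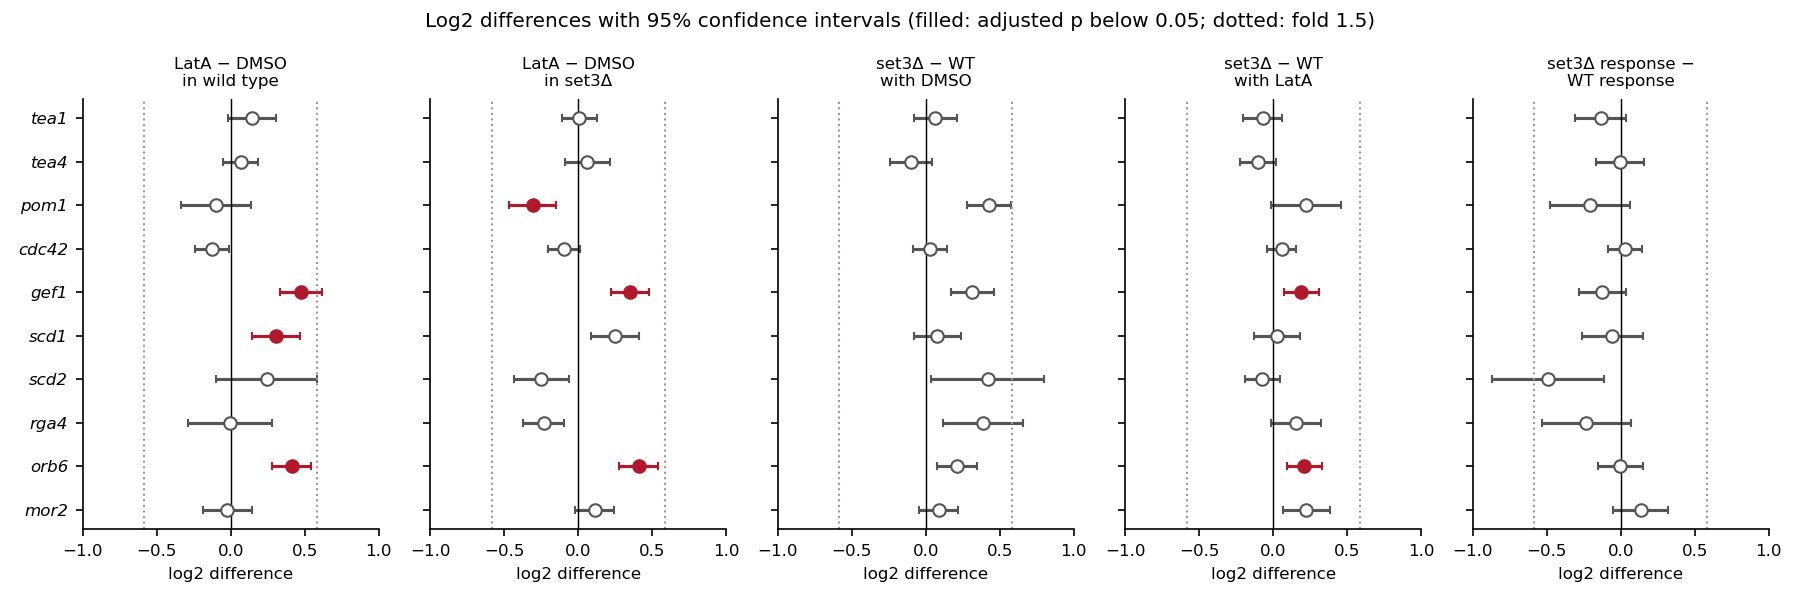
Log2 difference (horizontal axis) of each of the 10 transcripts in the 5 comparisons, with 95% confidence intervals from limma; filled points have an adjusted p below 0.05 and dotted lines mark a fold change of 1.5. The filled points are *gef1*, *scd1* and *orb6* in wild type, *pom1*, *gef1* and *orb6* in *set3Δ*, and *gef1* and *orb6* between the strains with LatA.

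Of the cell-end genes, *pom1* was the one that fell with LatA in *set3Δ*. Its *set3Δ* arrays lay at 0.39, 0.30 and 0.35 with DMSO and at -0.041, 0.0048 and 0.15 with LatA. In wild type the *pom1* arrays lay at -0.0048, -0.082 and -0.16 with DMSO and at 0.013, -0.27 and -0.29 with LatA. The *set3Δ* DMSO arrays lay above all others, and the remaining groups overlapped with their neighbours. The transcript fell by 0.31 in *set3Δ* (standard error 0.066, adjusted p = 0.0401 from limma), a call that was lost without any 1 of the 6 arrays (adjusted p from 0.0509 to 0.152). In wild type the difference was -0.10 (95% confidence interval -0.34 to 0.13), and the difference between the responses was -0.21 (95% confidence interval -0.48 to 0.063). Without wild-type LatA replicate 1 these *pom1* values were -0.20 and -0.11, and without wild-type DMSO replicate 1 or LatA replicate 2 or 3 the wild-type difference was -0.064, -0.060 or -0.047.

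With DMSO, *pom1* had the largest difference between the strains among the members, 0.43 higher in *set3Δ* (standard error 0.060, a fold change of 1.35), and 10.4% of all probe sets differed by more. It did not pass (adjusted p = 0.107 from limma), and it did when all 12 arrays shared 1 estimate of the spread (adjusted p = 0.0217). With LatA the *pom1* difference was 0.22 (adjusted p = 0.157), and 0.32 without wild-type LatA replicate 1, where it passed (adjusted p = 0.0419).

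The cell-end marker genes *tea1* and *tea4* passed in no comparison. The 12 *tea1* arrays lay between -0.14 and 0.14, and each group overlapped with its neighbour in the order of the means. Its largest difference was 0.14 for LatA in wild type (95% confidence interval -0.017 to 0.31, adjusted p = 0.123 from limma), which passed when all 12 arrays shared 1 estimate of the spread (adjusted p = 0.0468). The *tea4* arrays lay between -0.15 and 0.092. The LatA response of *tea4* was 0.066 in wild type, where the groups did not overlap, and 0.061 in *set3Δ*, where they did (95% confidence intervals -0.051 to 0.18 and -0.091 to 0.21). Between the strains *tea4* was the 1 member with a negative estimate both with DMSO (-0.099) and with LatA (-0.10), and neither passed (adjusted p = 0.31 and 0.199).

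**Figure D3:**
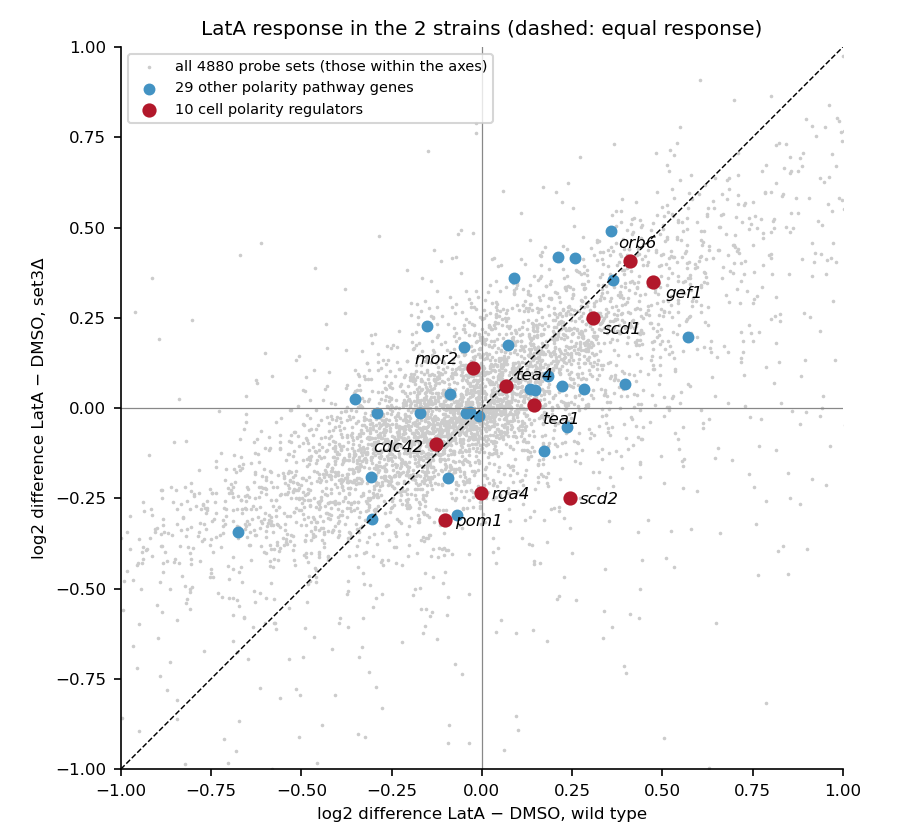
LatA response (log2 difference LatA minus DMSO) in wild type (horizontal axis) against *set3Δ* (vertical axis) for all probe sets (grey), 29 other polarity pathway genes (blue) and the 10 regulators (red, named); the dashed line marks an equal response. *orb6* lies on the line at 0.41 in both strains, and *scd2* lies off it at 0.24 and -0.25.

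The wider pathway was read from 4 lists of genes that work with the members, of which 29 of 30 genes could be matched to a probe set. In wild type 4 of 29 rose with LatA and 5 fell. Over all probe sets 43.0% were called, 17.5% as higher and 25.5% as lower. Of the cell-end and microtubule genes, 2 of 7 fell and none rose: *tip1*, a CLIP-170 relative of microtubule plus ends (-0.30, standard error 0.095), and *mod5*, the membrane anchor of Tea1p (-0.31, standard error 0.097). Of 9 further genes around Cdc42p 2 fell and none rose, the Ras exchange factor gene *efc25* (-0.29) and *skb1*, which encodes a protein methyltransferase that binds the Cdc42p effector kinase Shk1p (-0.35). The limma adjusted p was close to the threshold for *tip1* (0.0432) and *mod5* (0.0449). With each of the 6 arrays left out in turn, *tip1* passed 0 times, *mod5* 1 time, *efc25* 2 times and *skb1* 6 times.

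Of the 7 genes listed around Orb6p, called its network here, 3 rose in wild type and none fell. Over all probe sets 17.5% were called as higher and 25.5% as lower. They were *nak1*, a kinase gene upstream of Orb6p (0.40, standard error 0.096), *sog2*, a leucine-rich repeat protein of the same network (0.26, standard error 0.082), and *kin1*, a polarity kinase of the cell membrane (0.57, standard error 0.14, adjusted p = 0.0192 from limma). With each of the 6 arrays left out in turn, *nak1* passed 4 times, *kin1* 2 times and *sog2* 1 time. In the Pom1p pathway 1 of 6 rose, the Wee1p-inhibiting kinase gene *cdr1* (0.36, standard error 0.089), and 1 fell, the node protein gene *blt1*. For *blt1* the wild-type arrays lay at 0.14, 0.17 and 0.20 with DMSO and at -0.37, -0.51 and -0.64 with LatA, a fall of 0.68 (standard error 0.079, adjusted p = 0.00482). At 1.60-fold it was the 1 pathway gene to pass the fold limit as well in this comparison. The count of 9 was 4 without wild-type DMSO replicate 2, 3 without LatA replicate 1, and 4 without LatA replicate 2 or 3, while the share of all probe sets called ran from 27.0% to 51.6% over the 6 arrays left out.

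In *set3Δ* 3 of 29 pathway genes rose with LatA and 2 fell. Over all probe sets 12.4% were called, 6.43% as higher and 6.0% as lower. In the Orb6p network *sog2* (0.42, standard error 0.053) and *pmo25*, which encodes a partner of Nak1p (0.23, standard error 0.049), rose, 2 of 7. In the Pom1p pathway *cdr1* rose by 0.36 (standard error 0.052) and *blt1* fell by 0.34 (standard error 0.068, adjusted p = 0.036 from limma), 2 of 6. Around Cdc42p *pob1*, a scaffold gene of the cell ends, fell by 0.30, 1 of 9, and none of the 7 cell-end and microtubule genes passed in limma (2 at an unadjusted p below 0.05, beside 37.0% of all probe sets; 0 with each gene's own variance). The count of 5 dropped to 0 when DMSO replicate 1 or either of LatA replicates 1 and 2 was left out, to 2 without DMSO replicate 2 and to 1 without LatA replicate 3, while the share of all probe sets ran from 0.0% to 14.7%.

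With LatA, 9 of 29 pathway genes were higher in *set3Δ* than in wild type and none lower, beside 9.8% of all probe sets called higher. The median log2 difference of the 29 was 0.15, against 0.019 over all probe sets, and 26 of 29 were positive, against 2697 of 4880. The lists were chosen with earlier results of these data known, so these counts and medians describe the lists and test nothing. The largest was *cdr2*, the node kinase that Pom1p restrains. The *cdr2* arrays lay at 0.16, 0.16 and 0.19 in *set3Δ* and at -0.22, -0.34 and -0.35 in wild type, 0.47 apart on average (limma adjusted p = 0.00501, standard error 0.050). The *cdr2* call held without each array. With DMSO its difference between the strains was 0.35, which did not pass (limma, adjusted p = 0.144). Its LatA response was -0.087 in wild type and 0.038 in *set3Δ*. In the same list *cdr1* (0.37) and *blt1* (0.32) were higher, 3 of 6. With DMSO the differences were 0.38 for *cdr1* and -0.0065 for *blt1*, and neither passed. The others were *for3* (0.41) and *mod5* (0.29) among 7 cell-end and microtubule genes, *efc25* (0.23) and *skb1* (0.23) among 9 around Cdc42p, and *sog2* (0.31) and *pmo25* (0.23) among 7 of the Orb6p network. The count of 9 was 1 without wild-type LatA replicate 2 or *set3Δ* replicate 1, 2 without wild-type LatA replicate 3 or *set3Δ* replicate 2, and 5 without *set3Δ* replicate 3, while the share of all probe sets ran from 4.12% to 15.3%.

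With DMSO no pathway gene passed between the strains in limma (12 of 29 at an unadjusted p below 0.05, beside 22.8% of all probe sets; 0 with each gene's own variance). When all 12 arrays shared 1 estimate of the spread 6 of 29 passed, beside 11.0% of all probe sets. Positive differences were found for 22 of 29, with a median of 0.15 against -0.013 over all probe sets, again in lists chosen with earlier results known. The difference between the LatA responses passed for none of the 29 (7 at an unadjusted p below 0.05, beside 20.2% of all probe sets; 0 with each gene's own variance). With array weights 4 of 29 passed, beside 16.2% of all probe sets, and without wild-type DMSO replicate 1 it was 3 of 29, beside 9.82%. These lists and the members were compared on the same arrays, and the strain comparison with LatA shares its arrays with the LatA responses.

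**Figure D4:**
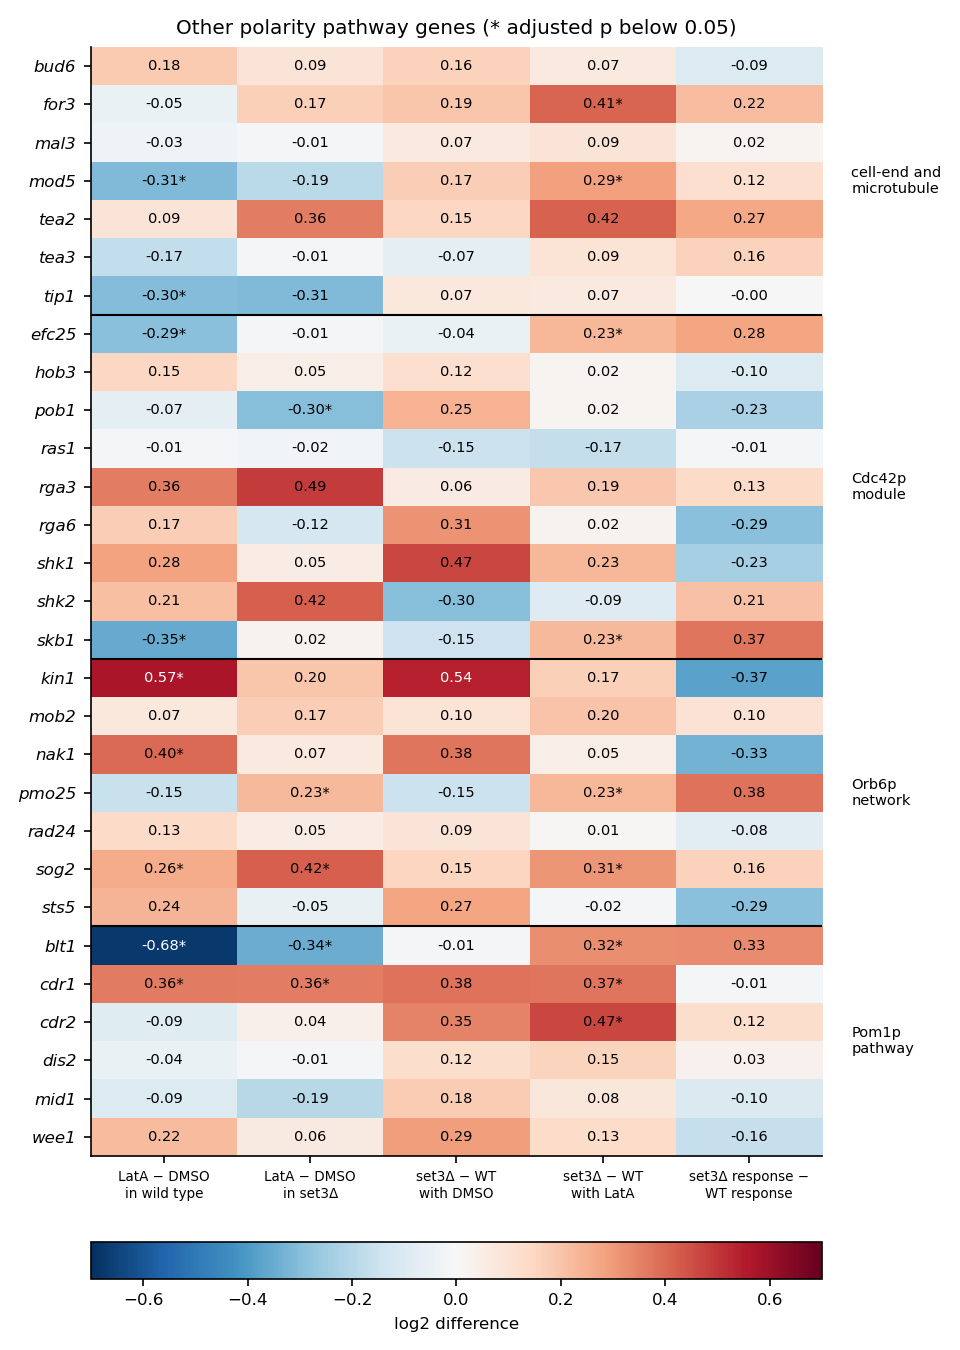
Log2 difference of 29 other polarity pathway genes (rows, in 4 lists) in the 5 comparisons (columns); colour and printed value give the log2 difference and an asterisk an adjusted p below 0.05 from limma. In the column of *set3Δ* against wild type with LatA 26 of 29 values are positive and 9 have an asterisk.

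The likeness of the 10 profiles over the 12 arrays was described with Pearson's r of the centred values. The arrays share treatment and strain, so r reflects the 4 group means as well as the replicates, and it carries no test. The closest pair was *gef1* and *orb6* (r = 0.95), followed by *pom1* and *rga4* (r = 0.89), *gef1* and *scd1* (r = 0.88) and *orb6* and *scd1* (r = 0.87). When each value was taken as its deviation from the group mean, r of *gef1* and *orb6* was -0.28, so that their likeness lay between groups and not between the replicates of a group. For *pom1* and *rga4* it was 0.60, for *gef1* and *scd1* 0.59, and for *orb6* and *scd1* 0.10. For *scd2* and *rga4* it was 0.76, close to their r of 0.77 over the 12 arrays. The pair with the most opposite profiles was *cdc42* and *scd1* (r = -0.76).

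Each member was also compared with 3878 other probe sets named for 1 gene, with multi-match probe sets left out. Those most alike were *cip1* for *gef1* (r = 0.98), *pol4* for *orb6* (r = 0.97) and *pof1* for *scd1* (r = 0.96). They were *krp1* for *scd2* (r = 0.95), *rud3* for *cdc42* (r = 0.95) and *cut8* for *rga4* (r = 0.94). For *pom1* it was *cdk9* (r = 0.91), for *tea4* *nta1* (r = 0.92) and for *tea1* *meu27* (r = 0.88). For *mor2* it was *for3*, the formin gene of actin cables and a gene of the cell-end list (r = 0.95). The highest of so many values of r over 12 arrays is large by selection, and these names describe the profiles only.

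**Figure D5:**
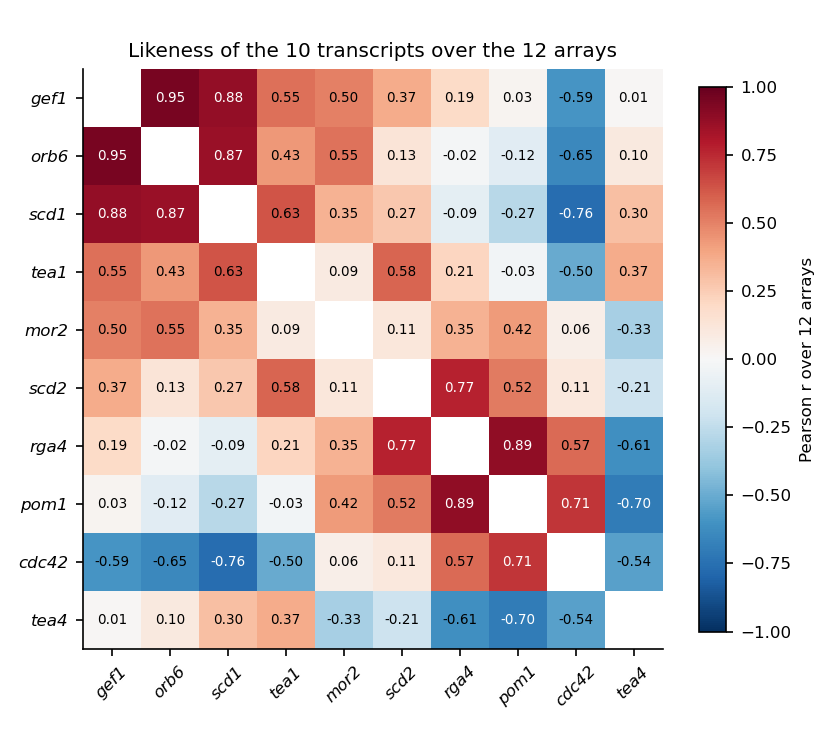
Pearson's r between the centred log2 profiles of the 10 transcripts over the 12 arrays (rows and columns are genes; colour and printed value give r). *gef1*, *orb6* and *scd1* form a block at 0.87 to 0.95, and *pom1* and *rga4* a pair at 0.89.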

How the data were processed

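The authors normalized the array files with RMA in Genespring GX 10.0.1 and deposited log2 intensities, 1 column per array. Every probe set has a median of 0 over the 12 arrays, from which the centring was read. Probe sets were named with the platform annotation (2865), or else with the study's supplementary gene table (1052); 19 that match several genes and 944 without a name were tested but are not named. Groups were compared with limma 3.58.1 (R 4.3.3), lmFit and eBayes across all 4880 probe sets, with Benjamini-Hochberg adjustment over all of them. Comparisons of 2 groups used their 6 arrays, and the difference between the LatA responses used all 12. A transcript was called at an adjusted p below 0.05, and counts are also given at a fold change above 1.5. The labels call the arrays biological replicates. Named genes are the 10 members, pathway genes past the test in a comparison (the 4 largest of a list) and, for each member, the probe set with the highest r. The members, the lists and these rules were chosen with earlier results of these data known. Alternatives were all 12 arrays in 1 fit, replicate number added as a block, variances without moderation, robust moderation, array weights (limma's gene-by-gene method), arrays centred on their median, no multi-match probe sets (60 left out), other limits and each array left out. The procedure was tested on simulated data. Plots used matplotlib 3.10.9 in Python 3.11.15. No coordinates or sequences are given, since none was used here.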

Additional observations from a re-analysis of the deposited data

Results flagged for a closer look

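The scaffold gene *scd2* was flagged because its LatA arrays moved in opposite directions in the strains. Every wild-type LatA array lay above every wild-type DMSO array, and every *set3Δ* LatA array below every *set3Δ* DMSO array. Such arrays did not overlap for 60.2% of all probe sets in wild type and for 46.7% in *set3Δ*. The share of all probe sets separated in opposite directions was not counted. The difference between the responses was -0.49 on the log2 scale (limma, unadjusted p = 0.0162, adjusted p = 0.171), so it did not pass the test of the difference itself. It was -0.33 without wild-type DMSO replicate 3. The gap in wild type was narrow, with the highest DMSO array at -0.0025 and the lowest LatA array at -0.00068. No outlier test was made, since each group had 3 arrays.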

How the results depend on the processing

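The wild-type calls of *gef1* and *orb6* held in every alternative fit, each array left out included, and were lost with the fold limit of 1.5. The number of members called in wild type was 3, and it was 5 with all 12 arrays in 1 fit or with array weights, 0 with the fold limit of 1.5, and 2 to 3 without 1 array. In *set3Δ* it was 3, and 0 with each gene's own variance, with the replicate number as a block, with the fold limit or at an adjusted p below 0.01, 6 at an adjusted p below 0.1, and 0 to 2 without 1 array. Between the strains with DMSO it was 0, and 4 with all 12 arrays in 1 fit, 1 with array weights, and 0 to 0 without 1 array. Between the strains with LatA it was 2, and 0 with each gene's own variance, with the replicate block, with the fold limit or at an adjusted p below 0.01, and 0 to 2 without 1 array. For the difference between the LatA responses it was 0, and 0 to 1 without 1 array.

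The replicate number was used as a block only as an alternative, since same-numbered arrays did not all deviate together. Their deviations from the group means had r from -0.50 to 0.56, and not every array correlated best with its own number. For replicate 1, however, r was positive throughout: 0.017 and 0.28 for LatA in wild type and *set3Δ*, 0.44 and 0.35 between the strains with DMSO and LatA. In each group replicate 1 also had the highest mean over all probe sets. In wild type the block left the count of members at 3. In *set3Δ* the fit with the replicate block called 0 of 4880 probe sets at an adjusted p below 0.05 (limma; 1725 at an unadjusted p below 0.05). A direction turned only where a difference was near 0. With arrays centred on their median the wild-type response was 0.025 for *rga4* and 0.0023 for *mor2*. Without 1 array the wild-type response ran from -0.12 to 0.063 for *rga4* and from -0.081 to 0.017 for *mor2*, and the *set3Δ* response of *tea1* from -0.0079 to 0.031. The strain difference of *scd1* with LatA ran from -0.023 to 0.072, and the difference between the responses from -0.045 to 0.036 for *tea4* and from -0.037 to 0.032 for *orb6*. Leaving out an array leaves fewer samples for the fit; other causes were not tested. Over the members' values in the alternative fits, 626 kept their direction and side of the threshold, 35 lost the call, 17 gained it and 22 turned direction.

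Among the 29 pathway genes the count in wild type was 9, and 4 with each gene's own variance, 1 with the fold limit, 14 and 2 at an adjusted p below 0.1 and 0.01, and 3 to 9 without 1 array. In *set3Δ* it was 5, and 0 with own variance, with the replicate block, with the fold limit or at 0.01, 9 at 0.1, and 0 to 4 without 1 array. Between the strains with DMSO it was 0, and 6 with all 12 arrays in 1 fit. With LatA it was 9, and 2 with own variance, 0 with the fold limit, 1 at 0.01, and 1 to 9 without 1 array. For the difference between the responses it was 0, and 4 with array weights, 1 at 0.1, and 0 to 3 without 1 array.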
